A study of Mus musculus with 48 samples.

Results

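IGHV6-6 is a mouse immunoglobulin heavy-chain variable gene, and its transcripts were followed here through the lacrimal gland (LG, the gland that makes the watery part of tears) and the spleen. The members were every deposited sequence whose V gene was called IGHV6-6, which came to 78872 of 4834214 deposited rows and 297663 of 14545027 unique-molecule counts in 48 libraries. Of these rows, 3529 came from the LG and 75343 from the spleen, and 78121 carried the allele IGHV6-6*01 against 751 for IGHV6-6*02. IGHV6-6 was singled out because one of its clonotypes recurred between LG of different mice, so its LG levels and its LG-to-spleen contrasts are given as a description with no test between groups or tissues. Such tests were kept to the spleen, although the LG and spleen of a mouse share clonotypes, as shown further on.

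The libraries came from 24 wild-type C57BL/6 (B6) mice, with 1 LG and 1 spleen library each. NOD-FMT mice (n = 10) were gavaged daily for weeks with fecal microbiota pooled from 30 NOD.B10.H2b mice more than 20 weeks old, a strain with autoimmune dry eye. PBS-T mice (n = 9) received PBS by gavage instead, and both groups had first drunk water with ampicillin, vancomycin and metronidazole. Untreated B6 mice (NC, n = 5) had neither antibiotics nor gavage, so a contrast with NC combines them. Cages were not identified in the labels, and the libraries hold heavy-chain transcripts only, so cell-type markers could not be examined. A count is 1 unique molecular identifier, and it combines the number of cells with the RNA per cell: fewer cells of a type and less RNA per cell cannot be told apart.

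A heavy-chain variable region is built in a developing B cell by joining 1 V, 1 D and 1 J gene. The third complementarity-determining region (HCDR3) spans that junction and is the most diverse part of the antigen-binding site, whereas the first and the second (CDR1 and CDR2) are encoded by the V gene itself. Activated B cells can then add point mutations to the V region and switch the constant region from IgM to IgG, IgE or IgA, the class that plasma cells of the LG secrete into tears. A clonotype was defined by its V gene, J gene and HCDR3 amino acids.

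The germline segment is shown because CDR1, CDR2 and, unless trimmed at the junction or mutated, the first residues of the HCDR3 come from it. IGHV6-6 lies on the minus strand of chromosome 12 from 114434788 to 114435244 (GRCm38, GENCODE M21), with a leader exon of 46 bases from 114435199 to 114435244 and a second exon of 311 bases from 114434788 to 114435098. The 300 bases from 114434788 to 114435087 lie in that second exon and are printed 5′ to 3′ on the coding strand, with CDR1 and CDR2 in capitals.
IGHV6-6: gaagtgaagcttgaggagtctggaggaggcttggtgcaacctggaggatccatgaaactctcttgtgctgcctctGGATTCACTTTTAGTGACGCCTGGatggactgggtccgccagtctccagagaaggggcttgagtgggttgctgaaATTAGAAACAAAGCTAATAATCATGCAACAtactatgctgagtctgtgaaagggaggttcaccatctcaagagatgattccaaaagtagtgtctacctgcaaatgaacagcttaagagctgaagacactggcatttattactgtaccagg
The last 6 bases, accagg, follow the conserved cysteine codon and open the HCDR3 with threonine and arginine when they are kept whole. On average 92.6% ± 1.33 (SD, n = 24 spleens) of the IGHV6-6 clonotypes of a spleen began with threonine and 49.3% ± 2.18 with threonine and arginine.

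The family neighbours differed widely in use. IGHV6-3, which matched IGHV6-6 at 276 of 299 aligned bases (92.3%), was found in every LG and spleen library, with a median of 3.23% of the counts in the spleen. IGHV6-4 had no count in the LG and 583 in the spleen, IGHV6-7 had 1 count in the LG and 82 in the spleen, and the pseudogenes IGHV6-1 and IGHV6-2 and the gene IGHV6-5 had none. No deposited row named more than 1 V gene, and IGHV6-6 and IGHV6-3 differed at 23 bases.

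The HCDR3 nucleotides that the LG results turn on are those of TRLGFAY joined to IGHJ3, the clonotype that brought IGHV6-6 forward, and of its nearest relatives. The leading sequence of each mouse is printed from the base after the cysteine codon to the base before the conserved tryptophan, in lower case where it matches germline IGHV6-6 or IGHJ3 inward from either end and in capitals between them.
TRLGFAY, NOD-FMT mouse 1: accaggCTGGGAtttgcttac
TRLGFAY, NOD-FMT mouse 2: accaggCTGGGTtttgcttac
TRLGFAY, NOD-FMT mouse 8: accagATTGGggtttgcttac
TRLGFAY, NOD-FMT mice 9 and 10: accaggCTTGggtttgcttac
TRLGVAY, NOD-FMT mouse 2: acGAGGCTGGGGGttgcttac
TRLGGAY, NOD-FMT mouse 1: accaggCTGGGGGGGgcttac
TRLGGAY, NOD-FMT mouse 4: acGAGATTAGGGGGGgcttac
TRLGGAY, NOD-FMT mouse 6: accCGACTGGGGGGGgcttac
The same TRLGFAY protein loop was thus led by 4 nucleotide sequences in 5 mice, and TRLGGAY by 3 in 3 mice. The LG of mouse 1 also held 1 count of the TRLGFAY sequence that led in mouse 8.

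All counts that follow are those left after sequences with identical nucleotides in 3 or more mice of a tissue were removed as possible carry-over between libraries. The study's methods word their filter in this way, but the totals they list after it, summed over a tissue, are larger than those left here, and the sources used here do not say why. As an alternative chosen after seeing the data, such sequences were kept in the mouse with the most counts. The filter took 8.96% of the IGHV6-6 counts of the LG and 9.72% of those of the spleen, against 9.83% and 9.84% of all counts, and the alternative took 0.0509%, 4.85%, 0.245% and 3.71% in the same order. It left 55496 counts in 507 distinct clonotypes in the LG and 213697 counts in 39031 clonotypes in the spleen. Library totals after the filter ran from 40105 to 264365 counts in the LG and from 71859 to 2032338 in the spleen. Several libraries stood apart. The PBS-T mouse 6 spleen lost 66.6% of its counts (1.36% under the alternative) and was the smallest spleen library left, and the NC mouse 2 spleen was the second smallest with 78315. The NOD-FMT mouse 3 spleen was the largest (next 649276) and held 5944 IGHV6-6 clonotypes (next 2794). The PBS-T mouse 5 LG lost 39.8% and held 186 IGHV6-6 clonotypes against 4 to 38 in the other LG, the NOD-FMT mouse 7 LG lost 23.4%, and the NOD-FMT mouse 8 LG lost 43.3% of its IGHV6-6 counts.

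In the spleen, IGHV6-6 was moderately used. It took from 0.885% to 3.28% of the counts of a spleen (median 2.04%, 12th of 136 V genes) and from 0.827% to 1.81% of the clonotypes (median 1.37%, 25th). Before the filter, the PBS-T mouse 6 spleen held 0.330% in place of 0.913% of the counts. A spleen IGHV6-6 clonotype held 4.35 ± 1.56 counts on average, against 2.97 ± 0.662 for clonotypes of the other V genes (SD, n = 24).

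In the LG the same gene ranged far more widely. It took from 0.0397% of the counts in PBS-T mouse 2 (35 of 88241, Wilson 95% interval 0.0285% to 0.0552%) to 10.5% in PBS-T mouse 4 (6083 of 57709, 10.3% to 10.8%), with a median of 1.04%. These intervals cover counting error only. By group, NOD-FMT LG ran from 0.360% through a median of 1.12% to 5.54%, PBS-T LG had a median of 0.918% over the range just given, and the 5 NC LG held 0.496%, 1.24%, 1.10%, 0.305% and 6.60%. The groups overlapped throughout. Before the filter, the LG of NOD-FMT mouse 8 held 7.83% in place of 4.66%. Single clonotypes carried these shares: the largest clonotype held 54.0% ± 20.1 of the IGHV6-6 counts of an LG but 9.51% ± 4.24 of those of a spleen (SD, n = 24 each).

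Ordered by mean share of counts, the levels were 2.45% ± 0.537 in NOD-FMT spleen, 2.32% ± 3.36 in PBS-T LG, 1.95% ± 2.63 in NC LG, 1.77% ± 0.715 in PBS-T spleen, 1.77% ± 1.84 in NOD-FMT LG and 1.50% ± 0.451 in NC spleen (SD; n = 10 NOD-FMT, 9 PBS-T and 5 NC). Neighbours in this order differed by less than their SD. The LG means rested on single glands: without PBS-T mouse 4 the PBS-T LG mean was 1.29%, and without NC mouse 5 the NC LG mean was 0.784%. By medians, all 3 spleen groups (2.42%, 1.63% and 1.66%) lay above all 3 LG groups (1.12%, 0.918% and 1.10%). Within a mouse, the share of counts was higher in the LG than in the spleen in 7 of 24 mice (2 NOD-FMT, 3 PBS-T and 2 NC), whereas the share of clonotypes was higher in the LG in 15 of 24. Counts per clonotype were higher in the LG in 24 of 24 mice. The same held for the other V genes, with 12.3 (PBS-T mouse 5) or more in every LG and 4.46 (PBS-T mouse 8) or fewer in every spleen.

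**Figure D1:**
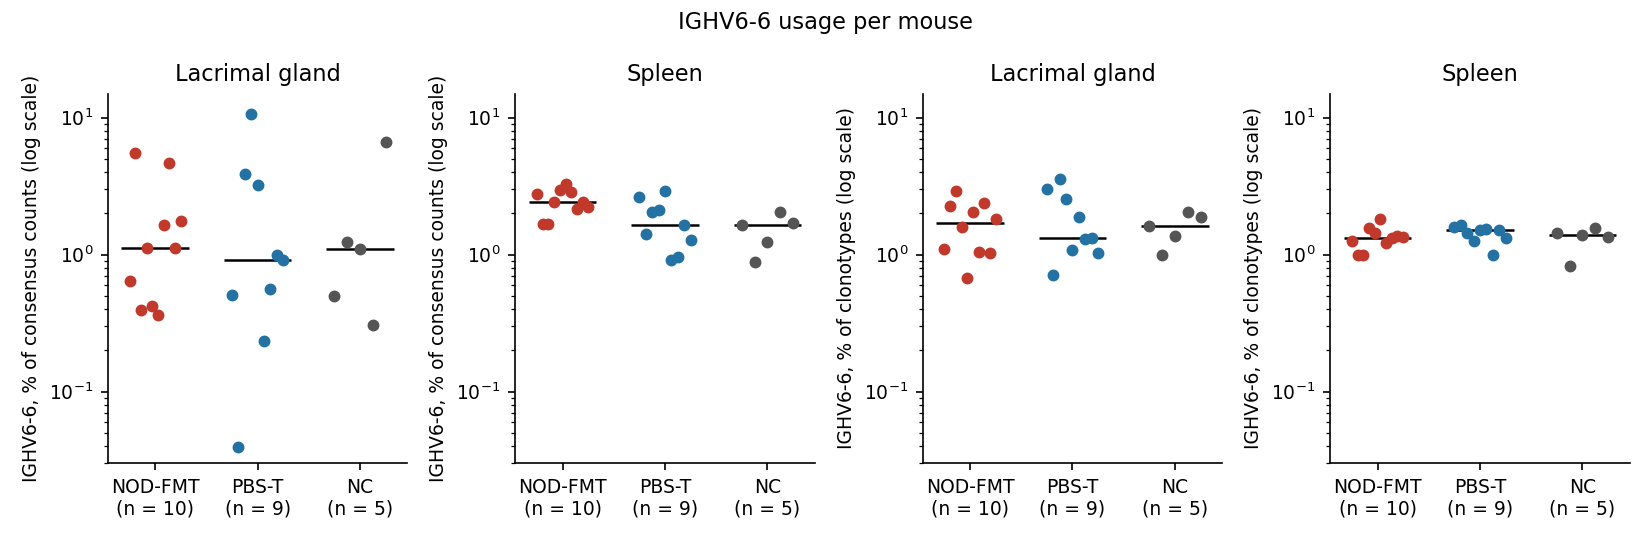
Share of IGHV6-6 in each library, as percent of consensus (unique-molecule) counts in the left pair of panels and of clonotypes in the right pair, for the LG and spleen of NOD-FMT, PBS-T and NC mice; points are mice, lines are group medians and all percent axes are logarithmic. LG counts spread from 0.0397% to 10.5%, whereas the spleens lie between 0.885% and 3.28%.

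Whether the use of IGHV6-6 in the spleen differed between the groups was tested over all V genes. No group received fecal microbiota from other donors, so an effect of these donors and one of any transfer cannot be told apart. IGHV6-6 took 2.45% ± 0.537 of spleen counts in NOD-FMT mice, 1.77% ± 0.715 in PBS-T mice and 1.50% ± 0.451 in NC mice, and the 3 groups overlapped. The NOD-FMT spleens ran from 1.67% through a median of 2.42% to 3.28%, the PBS-T spleens from 0.913% through 1.63% to 2.93%, and the NC spleens held 1.66%, 0.885%, 1.23%, 2.04% and 1.70%. In edgeR's quasi-likelihood test, IGHV6-6 was 0.40 higher on the log2 scale in NOD-FMT than in PBS-T spleens (SE 0.19, adjusted p = 0.282) and was not among the 7 genes called of 103 tested (6.8%). Against NC it was 0.76 higher (SE 0.24, adjusted p = 0.0622), where 4 of 103 genes were called (3.88%). This contrast lay at the threshold: an exact two-sided permutation test of the share over mice gave a difference of 0.943 percentage points (adjusted p = 0.02997 over 6 comparisons), DESeq2 gave 0.73 (adjusted p = 0.03658), and without the PBS-T mouse 6 and NC mouse 2 spleens edgeR gave 0.61 (adjusted p = 0.172). With shared sequences kept in the mouse with the most counts, edgeR gave 0.58 (adjusted p = 0.145). Leaving out the PBS-T mouse 7 spleen took the edgeR value to 0.77 (adjusted p = 0.0432), and over all mice left out in turn adjusted p ran from 0.0432 to 0.178. PBS-T exceeded NC by 0.36 (SE 0.23, edgeR adjusted p = 0.504), a contrast in which edgeR called 0 of 103 genes (0%), with 14 at an unadjusted p under 0.05, and DESeq2 called 0. IGHV6-3 differed by 0.19 (SE 0.15) between NOD-FMT and PBS-T and by 0.12 (SE 0.18) between NOD-FMT and NC in the same fit (edgeR adjusted p = 0.628 and 0.856).

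Counted by clonotypes, where an expanded clone counts once, the groups were closer. IGHV6-6 held 1.33% ± 0.244 of the clonotypes of NOD-FMT spleens, 1.42% ± 0.201 in PBS-T and 1.31% ± 0.284 in NC. The edgeR differences were -0.10 (SE 0.11, adjusted p = 0.845) for NOD-FMT against PBS-T, where 1 of 100 genes was called (1%), and 0.02 (SE 0.13, adjusted p = 0.991) for NOD-FMT against NC, where 0 of 100 were (0%; 7 at an unadjusted p under 0.05, 1 by DESeq2). PBS-T against NC differed by 0.11 (SE 0.14, adjusted p = 0.983), with 0 of 100 genes called (0%; 3 at an unadjusted p under 0.05, 0 by DESeq2). Counts per IGHV6-6 clonotype were 5.46 ± 1.33 in NOD-FMT, 3.93 ± 1.32 in PBS-T and 2.90 ± 0.630 in NC spleens, while those of the other V genes were 2.91 ± 0.460, 3.26 ± 0.851 and 2.55 ± 0.419.

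The genes whose share of clonotypes moved most like that of IGHV6-6 over the 24 spleens were IGHV6-3 (Spearman's rho 0.94), IGHV10-1 (0.94) and IGHV7-4 (0.82). Every library was made with the same set of V gene primers and its shares sum to 100%, so the correlations are a description.

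A family of related HCDR3 loops stood out in the NOD-FMT spleens. TRRXPXYFDY joined to IGHJ2, where X is any residue, was noticed after the values were seen, so it is a description with no test. It made up 15785 spleen counts in 21 IGHV6-6 clonotypes, and 15785 of the 15797 counts with this loop and IGHJ2 over all V genes used IGHV6-6. Leading sequences are shown to set the encodings of the same loop side by side, marked as above with IGHJ2 in place of IGHJ3.
TRREPHYFDY, NOD-FMT mouse 3: accaggCGGGAACCCCactactttgactac
TRREPHYFDY, NOD-FMT mouse 5: accaggCGGGAGCCCCactactttgactac
TRRDPNYFDY, NOD-FMT mouse 7: accaggAGGGACCCTAactactttgactac
TRRDPNYFDY, NOD-FMT mouse 9: accaggCGGGACCCTAactactttgactac
TRRDPYYFDY, NOD-FMT mouse 3: accaggAGAGACCCGTactactttgactac
TRREPNYFDY, NOD-FMT mouse 8: accaggCGGGAACCCAactactttgactac
TRRQPRYFDY, NOD-FMT mouse 6: accaggAGACAGCCGCGTtactttgactac
Among encodings of 20 or more counts, TRRDPNYFDY had 9 in 4 spleens and TRRDPYYFDY 6 in 4 spleens. TRREPNYFDY had 6 in 5 spleens, 1 of them the PBS-T mouse 9 spleen with 52 counts. TRREPHYFDY, the loop with the most spleen counts (3516), had 2 in 3 spleens. The encoding printed for mouse 5 was also that of mouse 7, with 113 counts. A mouse could hold more than 1 encoding of a loop, as mice 6, 7 and 9 did for TRRDPNYFDY. In mice 6 and 7 these encodings differed at 1 base, and in mouse 9 each was 1 base from another. Encodings are therefore not a count of separate V, D and J joinings, and whether they arose separately was not tested. With sequences in 2 or more mice removed, 13082 of the 15697 NOD-FMT spleen counts of the form were left.

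The loop TRRXPXYFDY occurred in the spleens of 9 of 10 NOD-FMT mice. Its counts there were 26, 355, 2902, 104, 1882, 2189, 4299, 1574, 2366 and 0 in mice 1 to 10. It reached 27.01% of the IGHV6-6 counts in mouse 7, with a median of 14.5% over the 10 mice. In PBS-T spleens it occurred in 4 of 9 mice with 18, 2, 3 and 52 counts, at most 0.971% of the IGHV6-6 counts, and in NC spleens in 2 of 5 with 5 and 8, at most 0.0876%. The groups overlapped only through NOD-FMT mice 1 and 10. It supplied the largest IGHV6-6 clonotype of 7 of 10 NOD-FMT spleens and of none of the 9 PBS-T or 5 NC spleens. Most of these counts were IgM (77.3% ± 18.2 over the 8 NOD-FMT spleens with 100 or more counts of it), with IgA at 10.8% ± 9.41 and IgG at 11.6% ± 18.4. The IgG mean rested on NOD-FMT mouse 4 (56.7% of 104 counts), with 1.81% to 9.76% in the other 7 spleens. In the LG it was found in 5 NOD-FMT mice with 250, 18, 5, 27 and 319 counts and in no PBS-T or NC mouse. The 18, 5 and 27 counts were 0.0139%, 0.00932% and 0.0103% of all counts of NOD-FMT mice 5, 6 and 7. These lie near the limit for a count of 0, which reached 0.00748% in PBS-T and 0.00529% in NC LG (3 counts in the smallest library). Leaving its counts out of the numerator, IGHV6-6 took 2.12% ± 0.433 of the counts of NOD-FMT spleens, 1.77% ± 0.717 in PBS-T and 1.50% ± 0.451 in NC. The form was noticed in NOD-FMT spleens, so a lower share there was fixed by that choice.

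**Figure D2:**
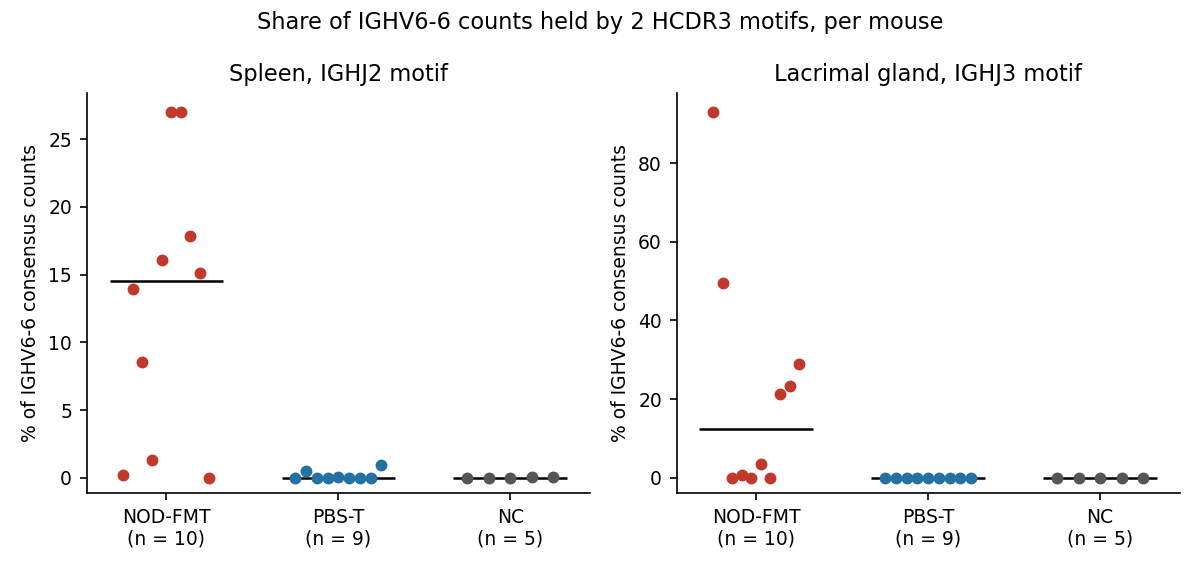
Counts of the HCDR3 loops TRRXPXYFDY with IGHJ2 in the spleen and TRLGXAY with IGHJ3 in the LG, as percent of the IGHV6-6 counts of each library; points are mice of the NOD-FMT, PBS-T and NC groups and lines are group medians. Of the spleens, only those of NOD-FMT mice held TRRXPXYFDY above 1% of the IGHV6-6 counts, and of the LG, only those of NOD-FMT mice held TRLGXAY.

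In the spleen, IGHV6-6 antibodies had shorter HCDR3 loops and used IGHJ3 more than those of the other V genes of the same library. Mean HCDR3 length was 10.03 ± 0.286 residues against 11.5 for the others, and it was shorter in 24 of 24 spleens (difference -1.50 ± 0.145 residues, two-sided sign-flip permutation test over 24 mice, 100000 resamples, adjusted p = 1.67e-05 over 5 measures). Loops of 7 residues or fewer made up 20.4% of the IGHV6-6 clonotypes against 7.77% of the others, and loops of 17 or more 0.864% against 2.89%. IGHJ3, whose germline end is cctggtttgcttac, was joined to 32.9% of IGHV6-6 clonotypes against 24.1%, higher in 24 of 24 spleens (difference 8.80 ± 1.78 percentage points, sign-flip permutation adjusted p = 1.67e-05). IGHJ4 was joined to 21.4% against 26.5%, IGHJ2 to 31.9% against 34.2% and IGHJ1 to 13.8% against 15.3%. The p of 1.67e-05 is the smallest that these resamples and this adjustment can give here.

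Among the 56 V genes with at least 100 clonotypes in every spleen, IGHV6-6 had the second shortest mean HCDR3 (median 10.1 residues), after its relative IGHV6-3 (9.56), and the third highest share of IGHJ3. The longest loops belonged to IGHV1-62-2 (13.5 residues) and the highest IGHJ3 share to IGHV2-9 (40.2%, against 33.2% for IGHV6-6).

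**Figure D3:**
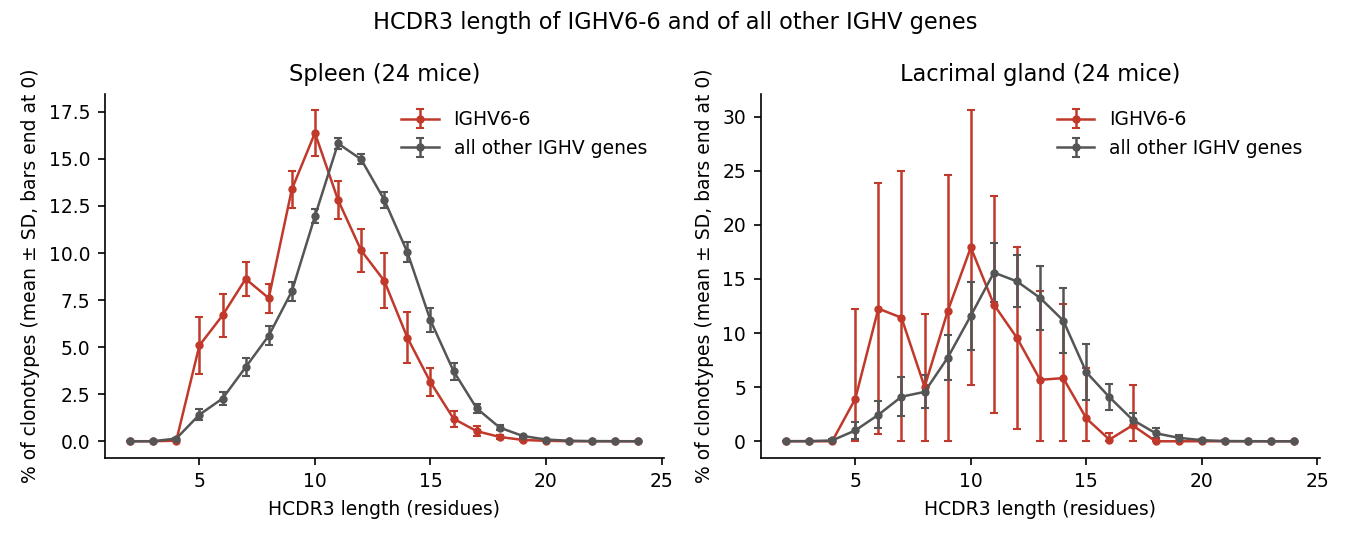
HCDR3 length in residues of IGHV6-6 clonotypes and of clonotypes of all other V genes, as percent of clonotypes, in the spleen and in the LG; points are means over 24 mice and bars are SD, drawn no lower than 0. The IGHV6-6 curve of the spleen lies to the left of the other genes, with 20.4% of clonotypes at 7 residues or fewer against 7.77%.

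Spleen IGHV6-6 transcripts were also more often IgM and carried fewer V mutations than the rest. IgM made up 83.8% of IGHV6-6 counts against 70.0% of the others and was higher in 21 of 24 spleens (difference 13.8 ± 9.75 points, sign-flip permutation adjusted p = 1.67e-05). IgG made up 4.32% against 11.97% and IgD 2.14% against 6.13%, neither of which was tested. IgA, at 9.73% against 11.9%, was lower in 17 of 24 spleens and did not pass the test (difference -2.12 ± 5.75 points, sign-flip permutation adjusted p = 0.0829), although without the PBS-T mouse 5 spleen it did (-2.82, adjusted p = 0.00967). V mutations averaged 0.817 nucleotides per count against 1.31, fewer in 21 of 24 spleens (difference -0.49 ± 0.499, sign-flip permutation adjusted p = 0.0001375), and 70.1% ± 10.2 of IGHV6-6 counts carried none. By rank, IGHV6-6 was the fifth highest of 56 genes in IgM but the 23rd lowest in V mutations, where IGHV10-1 was lowest with 0.308. IGHV6-3 was the second highest in IgM (88.7% against 85.6%) and the fifth highest in IGHJ3 (30.9%). Library amplification began from V gene primers, so mutations under a primer are not read.

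Between groups, none of these spleen features of IGHV6-6 passed the exact permutation test. Mean HCDR3 length was 10.05 ± 0.293 residues in NOD-FMT, 10.06 ± 0.196 in PBS-T and 9.96 ± 0.438 in NC mice, and V mutations were 0.859 ± 0.308, 0.830 ± 0.414 and 0.709 ± 0.418. IgM was 84.9% ± 6.60, 80.8% ± 10.5 and 87.0% ± 5.03 of the counts, and the share of IGHJ3 was 32.7% ± 2.46, 32.5% ± 1.86 and 33.9% ± 0.862 of the clonotypes. IgA was 9.20% ± 4.89, 10.7% ± 7.70 and 9.06% ± 5.76. The 15 comparisons (5 features, 3 pairs of groups) gave unadjusted exact permutation p from 0.134 to 0.967, and each adjusted p was 0.967.

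In the LG, IGHV6-6 transcripts were mostly IgA. IgA made up 89.9% ± 15.8 of their counts (SD, n = 24), close to the 88.4% of the other V genes there, and within every mouse it exceeded the spleen value. The lowest LG were PBS-T mouse 9 (37.2% IgA, 62.8% IgM), NC mouse 4 (52.6% IgA, 19.7% IgM) and NOD-FMT mouse 5 (69.7% IgA). In PBS-T mouse 9 the IgM belonged to 1 clonotype, TRELTGTVFAY with IGHJ3, whose 653 counts were 100% IgM and 62.7% of that gland's IGHV6-6 counts. The other V genes of this gland stood apart as well, with 48.8% IgM and 13.7% IgA. In NOD-FMT mouse 5, TSRDY with IGHJ4 held 439 of 542 counts, 65.4% IgA and 34.6% IgG. Both were picked out after their values were seen.

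LG loops were short as well: the mean was 9.69 ± 0.695 residues against 11.7 for the other V genes, shorter in 24 of 24 LG. By group it was 9.15 ± 0.583 in NOD-FMT, 10.1 ± 0.538 in PBS-T and 9.97 ± 0.395 in NC LG. Mutation loads in the LG differed more than in the spleen. IGHV6-6 counts carried 0.470 ± 0.364 V mutations in NOD-FMT LG, 0.409 ± 0.486 in PBS-T LG and 2.03 ± 1.42 in NC LG. Counts with no V mutation made up 72.8% ± 26.1, 75.0% ± 28.5 and 36.9% ± 19.1 in the same order, from 7.38% in NC mouse 2 to 100% in PBS-T mouse 2, whose gland held 35 counts. The other V genes of the same glands also carried most in NC LG (0.702, 1.24 and 1.90 in the same order, with 74.4%, 61.3% and 50.1% of counts free of V mutations). The NC LG held 1.28, 4.40, 1.12, 2.26 and 1.06 mutations, so the lowest (1.065, NC mouse 5) lay just above the highest NOD-FMT LG (1.057, mouse 5) and within the range of PBS-T LG (0 to 1.38).

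**Figure D4:**
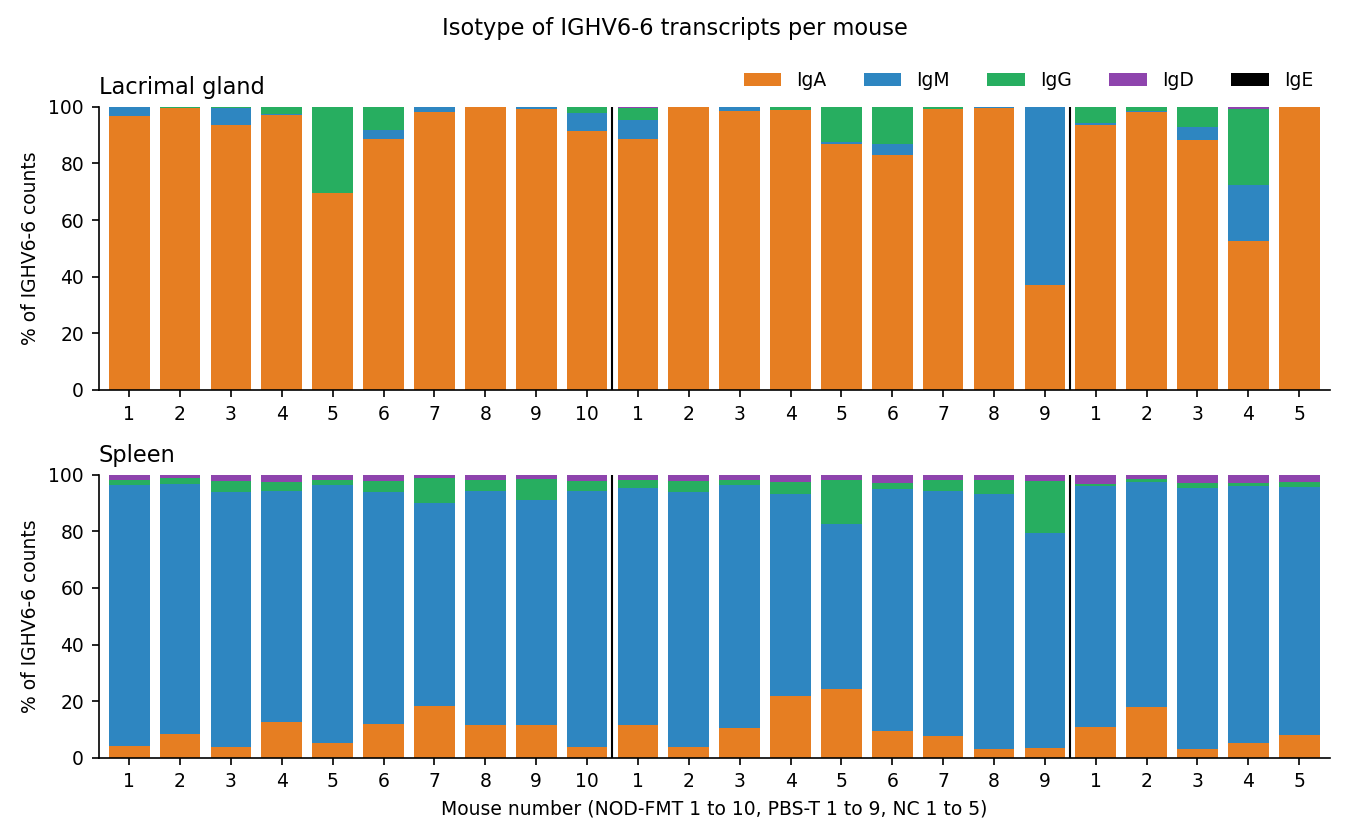
Isotype of IGHV6-6 counts in each mouse, LG above and spleen below, as percent of the IGHV6-6 counts of the library; each bar is 1 mouse, ordered as NOD-FMT, PBS-T, NC. LG counts are mostly IgA, except in PBS-T mouse 9 with 62.8% IgM, and spleen counts are mostly IgM.

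Of 507 LG clonotypes, 458 were seen in 1 mouse, 36 in 2, 9 in 3 and 4 in 4 or more. Thus 9.66% were in 2 or more mice, against 6.01% of the LG clonotypes of all V genes. IGHV6-6 was singled out through such sharing, and these shares are not matched for HCDR3 length. Within a group, sharing was highest in the 5 NC LG, at 16.7% of their IGHV6-6 clonotypes. It was 5.03% in the 10 NOD-FMT LG and 4.47% in the 9 PBS-T LG. Over all V genes the shares were 14.2% in NC, 2.65% in NOD-FMT and 2.29% in PBS-T LG. TRLGFAY with IGHJ3 was held by 5 mice, all NOD-FMT, with 1120, 860, 914, 449 and 819 counts in mice 1, 2, 8, 9 and 10. These were 0.463%, 0.325%, 0.987%, 0.261% and 0.510% of all counts of those glands, all of them IgA. V mutations averaged 1.13 per count in mouse 1 and 0.018 to 0.039 in the other 4 mice. The other 3 clonotypes found in 4 or more LG used IGHJ1. TGNFYWYFDV was seen in 6 mice, but 724 of 734 counts were in PBS-T mouse 5, with a further 2040 counts removed by the filter. TGNYDWFFDV was seen in 4 mice with 874 of 880 counts in PBS-T mouse 5, and TRHFYWYFDV in 4 mice with 1 to 3 counts each. None of these 3 was found in any spleen, and each was led by the same nucleotide HCDR3 in every gland that held it.

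Over the 49 shared LG clonotypes, 40 had the same leading nucleotide HCDR3 in every mouse and 9 did not. Of the 7 shared among NOD-FMT mice alone, 6 had differing leading sequences, against 1 of 9 shared among PBS-T mice alone and 0 of 6 among NC mice alone. The 6 included TRLGFAY, which brought IGHV6-6 forward, and TRLGGAY, TRRDPNYFDY and TRRDPYYFDY, whose forms were chosen after seeing the values. They also included TRAMDY with IGHJ4, with 70 counts and 3 leading sequences over 3 mice, and TDLWAY, with 2 counts over 2 mice. The other V genes are not given for comparison. In 30 of the 40, at least 1 mouse held the clonotype with a single count. This held for 7 of the 8 among PBS-T mice alone and 1 of the 6 among NC mice alone. Passage of molecules between libraries was not tested beyond the filter.

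Loops of the form TRLGXAY with IGHJ3, a form also chosen after the values were seen, made up 10917 IGHV6-6 counts in the LG, and only 1 other LG count with this loop and IGHJ3 used another V gene. They were found in 7 of 10 NOD-FMT LG, with 1450, 7273, 5, 7, 914, 449 and 819 counts in mice 1, 2, 4, 6, 8, 9 and 10, and in none of the 9 PBS-T or 5 NC LG. In NOD-FMT mouse 1 they were 93.1% of the IGHV6-6 counts of the gland and in mouse 2 49.6%. With sequences in 2 or more mice removed, 9078 of the 10917 counts were left, in 7 NOD-FMT LG. A count of 0 allows up to 0.00748% of the counts of a PBS-T LG and 0.00529% of an NC LG, taking 3 counts in the smallest library of each group as the limit. Mouse 2 added TRLGVAY, with 6410 counts or 2.42% of the gland and a mean of 1.03 V mutations per count. Of these counts, 0% were free of V mutations, and whether the mismatches lay at the junction was not examined. In the spleen the same form was sparse but not confined to NOD-FMT mice, with 283 counts in 10 of 10 NOD-FMT, 31 in 6 of 9 PBS-T and 8 in 4 of 5 NC spleens. Before the filter these were 381 counts in 10 NOD-FMT, 41 in 6 PBS-T and 12 in 5 NC spleens. TRLGFAY itself was in 14 spleens (8 NOD-FMT, 4 PBS-T and 2 NC) with 136 counts, of which 44.9% were IgA and 54.4% IgM. The filter removed a further 106 spleen counts of TRLGFAY.

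The other large LG clonotypes lay almost wholly in a single gland. TPFMDY with IGHJ4 held 5583 counts or 9.67% of the LG of PBS-T mouse 4, which made that gland the highest in IGHV6-6, and 1000 counts in the same mouse's spleen. NOD-FMT mouse 9 held 1 count of it in the LG and 106 in the spleen. Its leading sequence, accCCCTTtatggactac, kept 3 germline V bases and 10 of IGHJ4. TRGIYI and TRGLYY, both with IGHJ2, held 2.11% and 1.90% of the LG of NC mouse 5, and TRRWLLRWYFDV with IGHJ1 held 2.08% of the LG of PBS-T mouse 3, with 1 count in the LG of PBS-T mouse 6. TRGPGWFAY with IGHJ3 in NOD-FMT mouse 8 kept 1676 counts, or 1.81% of the gland, while 3289 more in that gland were removed because mice 1 and 4 each held 1 count of the same sequence.

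Many LG clonotypes also occurred in the spleen of their own mouse. Summed over mice, 163 of 576 IGHV6-6 LG clonotypes were also in the own spleen, against 23.3 on average in the spleen of another mouse. The own spleen held more of them than every other spleen did in 22 of 24 mice. The exceptions were NOD-FMT mouse 5, with 2 in its own and at most 2 in another spleen, and NC mouse 2. Of the 10 LG clonotypes of NC mouse 2, 2 were in its own spleen and 4 in another spleen, with a mean of 0.174 over the other spleens. The reason was not tested. The clonotypes found in both tissues made up 85.7% ± 16.2 of the IGHV6-6 counts of a gland (SD, n = 24). By group, 88 of 194 LG clonotypes in NOD-FMT mice, 50 of 304 in PBS-T mice and 25 of 78 in NC mice were in the own spleen, and PBS-T mouse 5 alone had 13 of 186. Per mouse this came to 48.7% ± 19.3, 33.3% ± 18.5 and 30.6% ± 13.7 of the LG clonotypes. The overlap of the other V genes is not given for comparison. Spleens held from 343 (NC mouse 2) and 352 (PBS-T mouse 6) to 5944 (NOD-FMT mouse 3) IGHV6-6 clonotypes, and these values are not adjusted for that.

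**Figure D5:**
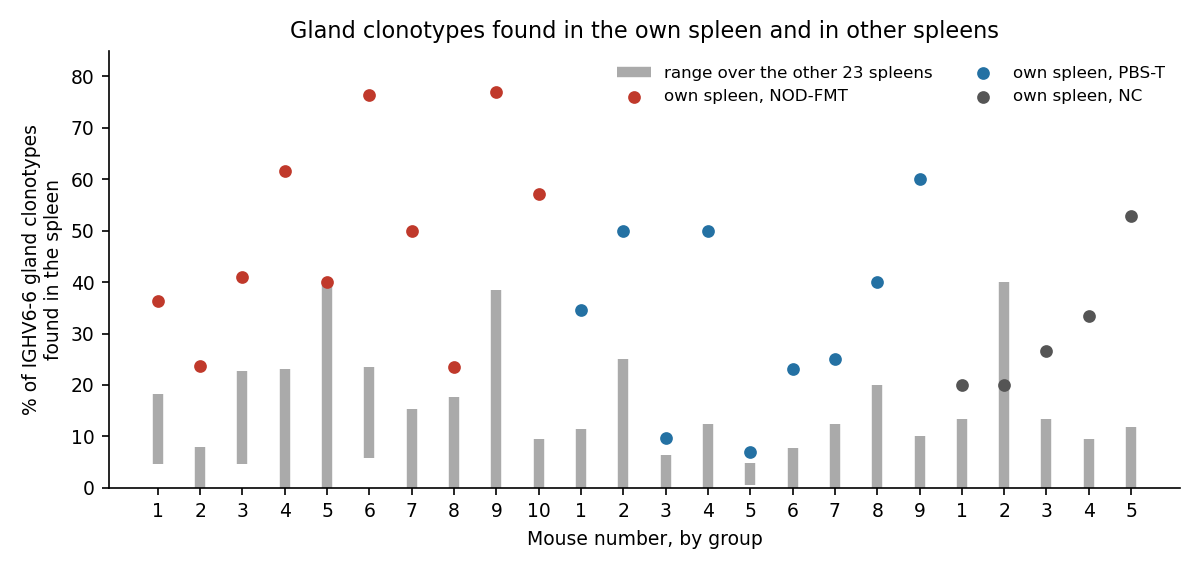
Percent of the IGHV6-6 LG clonotypes of each mouse that were also found in its own spleen (points), beside the range over the spleens of all other mice (grey bars), for NOD-FMT, PBS-T and NC mice. The own spleen lies above the range of the others in 22 of 24 mice.

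Over all lengths, a higher share of the spleen clonotypes of IGHV6-6 than of other V genes was found in more than 1 mouse, a difference that was not tested and was smaller at equal HCDR3 lengths. Of 39031 IGHV6-6 clonotypes, 3400 (8.71%) were in 2 or more spleens, against 6.02% for all other V genes and 8.05% for the others at the HCDR3 lengths of IGHV6-6. Sharing fell from 23.01% at 5 residues to 2.85% at 15. Length by length the direction varied: IGHV6-6 stood above the other genes at 5 residues (20.1% for the others), at 15 (2.55%) and at 7 to 10, as with 12.6% against 9.60% at 9, and below them at 6 (15.9% against 16.5%), at 11 to 14, as with 5.54% against 6.11% at 11, at 16 (1.21% against 1.66%), at 17 (0.368% against 0.715%) and at 4, where none of 13 was shared against 19.7%. IGHV6-6 was the fifth of 56 genes, and IGHV6-3 ranked first with 10.5%. Of the 5 most widely shared clonotypes, 4 used IGHJ3. TTGFAY was in 24 of 24 spleens with 420 counts, of which 98.8% were IgM, in 24 nucleotide encodings. TPNWEGFAY was in 20 spleens, TRRLGPFDY with IGHJ2 in 18, and TPNWDGGFAY and TRRPAWFAY in 17 each. These are values after the filter. It removed a further 2182 spleen counts of TTGFAY, 1362 of TPNWEGFAY, 113 of TRRLGPFDY, 946 of TPNWDGGFAY and 245 of TRRPAWFAY. In the LG, TTGFAY had 4 counts and TPNWEGFAY 1, TRRLGPFDY had 13, and TPNWDGGFAY and TRRPAWFAY had none.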

How the data were processed

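RNA of the LG and spleen of 24 mice (10 NOD-FMT, 9 PBS-T and 5 NC, each a separate animal) was sequenced by the authors as 48 heavy-chain libraries. Blood libraries were not analysed here. Per the study's methods, cDNA was primed in the first constant domain with primers carrying unique molecular identifiers and extended from V gene primers. Reads were merged with PEAR, quality filtered, clustered by identifier and reduced to consensus sequences with Clustal Omega. Isotypes were assigned from IMGT constant genes, and IgBLAST gave V, D and J calls, of which productive sequences were kept. The submitters' processing notes name mm10, and the germline release is not given in the sources used here. The deposited tables give for each sequence its count, a whole number of consensus sequences with no normalization, and the number of V mismatches to germline. The deposited fraction beside it is that count over the library total and was recomputed after the filter below. No deposited row named more than 1 V gene.

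From these tables, sequences with identical nucleotides in 3 or more mice of a tissue were removed, which follows the wording of the study's methods but leaves smaller totals per tissue than the study lists. Counts and distinct clonotypes were summed per V gene and library. The 24 spleens were fitted together with edgeR 4.0.16 (limma 3.58.1, R 4.3.3): TMM, filterByExpr, quasi-likelihood test, and Benjamini-Hochberg adjustment over all V genes with a threshold of 0.05. Features of IGHV6-6 were compared between groups by two-sided exact permutation over mice (SciPy 1.17.1, NumPy 2.4.6), and with the other V genes of the same spleen by sign-flip permutation with 100000 resamples. Python 3.11.15, pandas 2.3.3 and Matplotlib 3.10.9 were used, and DESeq2 1.42.0 served as an alternative. Each script with a test was first tested on simulated data. Wilson intervals are at 95%, and a limit for a count of 0 is 3 counts in a library. Other alternatives were the filter, a minimum of 2 counts per clonotype, the weights, the samples fitted, a replicate block and leaving out each mouse.

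Named were all IGHV6 genes, the 3 V genes most like IGHV6-6 over spleens, LG clonotypes in 4 or more mice, the 5 LG clonotypes with the highest share of a mouse and the 5 most widely shared spleen clonotypes. The HCDR3 patterns, TRLGGAY, TRELTGTVFAY, TSRDY, TRGPGWFAY and the V genes at the end of a ranking were added after their values were seen. The members and lists were chosen with earlier results of these data known.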

Additional observations from a re-analysis of the deposited data

Results flagged for a closer look

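Of 42 sets of values within a group, 10 had a highest or lowest mouse set apart from its nearest neighbour by Dixon's criterion, applied within each group as a screen, where chance flags about 1 in 20 groups. In the LG, IGHV6-6 took 10.5% of the counts in PBS-T mouse 4 (next 3.86%) and 6.60% in NC mouse 5 (next 1.24%). LG IgA was low in NOD-FMT mouse 5 at 69.7% of IGHV6-6 counts (next 88.6%), in PBS-T mouse 9 at 37.2% (next 82.9%) and in NC mouse 4 at 52.6% (next 88.2%). LG IgM was high in PBS-T mouse 9 at 62.8% (next 6.60%) and in NC mouse 4 at 19.7% (next 4.65%). IGHJ3 was joined to 50% of the LG clonotypes of NC mouse 2 (next 33.3%), a gland with 10 IGHV6-6 clonotypes. In the spleen, mean HCDR3 length was 9.27 residues in NOD-FMT mouse 2 (next 9.94) and 9.20 in NC mouse 2 (next 9.99).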

How the results depend on the processing

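Sign and call of the IGHV6-6 spleen count contrasts held in all alternatives but the calls of NOD-FMT against NC given with that result (DESeq2 0.73, exact permutation of the share 0.943 points, mice left out in turn 0.60 to 0.87). Small contrasts that passed no test changed sign. For clonotypes (log2), NOD-FMT minus NC was -0.012 with clonotypes of 2 or more counts, -0.12 without the PBS-T mouse 6 and NC mouse 2 spleens, an alternative chosen after seeing the data, and -0.10 to 0.078 leaving out each mouse. PBS-T minus NC was -0.035 without the same pair and -0.0088 to 0.17 leaving out each mouse. For HCDR3 length (residues), NOD-FMT minus PBS-T was 0.0022 with no contamination filter and NOD-FMT minus NC -0.0089 at 2 or more counts, and leaving out each mouse gave -0.0643 to 0.0768, -0.106 to 0.171 and, for PBS-T minus NC, -0.0962 to 0.164. For IgA (points), NOD-FMT minus NC was -0.294 when sequences in 2 or more mice were removed, -2.09 at 2 or more counts and -0.045 when sequences in 3 or more mice were kept in the mouse with the most counts (chosen after seeing the data), and leaving out each mouse gave -1.34 to 2.34, with -2.51 to 0.191 for NOD-FMT minus PBS-T and -0.0588 to 3.84 for PBS-T minus NC. V mutations, NOD-FMT minus PBS-T, were -0.011 at 2 or more counts and -0.0368 to 0.107 leaving out each mouse. IGHJ3 (points), NOD-FMT minus NC, was 0.353 at 2 or more counts, and NOD-FMT minus PBS-T was -0.284 to 0.697 leaving out each mouse. With the weights of counts and clonotypes exchanged, IgM for NOD-FMT minus PBS-T was -0.783, V mutations for PBS-T minus NC -0.0087, and IGHJ3 -3.39 for NOD-FMT minus PBS-T and 1.50 for PBS-T minus NC. The cause was not tested for any of these.

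Against the other V genes of a spleen, IgA passed the sign-flip permutation test at 2 or more counts (-4.69 points, adjusted p = 0.00591) and with exchanged weights (-0.788, adjusted p = 0.00011), and ran from -2.82 to -1.69 leaving out each mouse. HCDR3 length, IGHJ3, IgM and V mutations kept direction and call under all alternatives run. Mice with a higher IGHV6-6 share in the LG numbered 15 by clonotypes, and 2 among the 11 LG libraries whose files carry the word merged, a word the sources used here do not explain. Of the LG clonotypes, those in 2 or more mice numbered 22, against 49, when sequences in 2 or more mice were removed and also at 2 or more counts, and those in 4 or more mice numbered 1, against 4, at 2 or more counts. Spleen clonotypes in 2 or more and 4 or more mice, 3400 and 640, became 1018 and 194 at 2 or more counts and 1589 and 67 by HCDR3 nucleotides.

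V genes called between NOD-FMT and PBS-T by counts (7) numbered 3 at 2 or more counts, 2 without TMM, 0 without the 2 spleens named above and 0 to 8 leaving out each mouse (0 without PBS-T mouse 6). Between NOD-FMT and NC (4) they numbered 1 with no contamination filter, 2 at 2 or more counts, 0 with those groups alone, 2 without the 2 spleens, 6 by DESeq2 and 0 to 5 leaving out each mouse. By clonotypes, the 1 gene called between NOD-FMT and PBS-T became 0 to 3. The labels give each group replicate numbers but no link between same-numbered mice: 4 of 9 pairs correlated above 0.1 (-0.58 to 0.71), and 1 mouse correlated best with its own number. With a replicate block the count contrasts were 0.44 (edgeR adjusted p = 0.395), 0.88 (0.1003) and 0.44 (0.867) in the order NOD-FMT minus PBS-T, NOD-FMT minus NC, PBS-T minus NC, and those of clonotypes -0.11, 0.013 and 0.13. The block changed no IGHV6-6 call, and it took genes called from 7 to 0 and from 4 to 2. Because no row named more than 1 V gene, an alternative on ambiguous calls would be identical and was not run.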

Other observations

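The LG libraries whose files carry the word merged (6 NOD-FMT, 4 PBS-T and 1 NC) had mean IGHV6-6 shares of 1.47%, 1.40% and 0.305% of counts, and the other LG libraries (4, 5 and 4) 2.21%, 3.05% and 2.36%.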
